A study of Homo sapiens with 2 samples.

Results

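The ABC genes encode the ATP-binding cassette proteins, and they were taken here as the 45 genes of the deposited table whose symbol is ABC followed by a subfamily letter from A to G and a number, out of 19607 genes in all. They comprised 12 ABCA, 9 ABCB, 11 ABCC, 4 ABCD, 1 ABCE, 3 ABCF and 5 ABCG genes. The authors' annotation placed 40 of them on its pathway of ABC transporters, and the 5 outside it were ABCC6, ABCE1, ABCF1, ABCF2 and ABCF3. RNA was sequenced from CWR22rv1, a human prostate cancer cell line, to ask how loss of Akt1 and Akt2 changes its transcripts. One library came from cells with the genotype Akt1/2 knockout (Akt1/2 DKO), made by transfecting CRISPR/Cas9 guides against both genes with a puromycin resistance plasmid, followed by selection and isolation of monoclonal cells. The other library came from cells with the genotype wild type (control). The line was kept in RPMI medium with fetal bovine serum. The labels do not say which clone was sequenced, or whether the control cells had passed through selection and cloning. With 1 library per group, an effect of the knockout and a difference between a clone and the control cells cannot be told apart, no difference has a replicate check, and no p-value is given.

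ABC proteins share a domain that binds and hydrolyses ATP. In most members paired domains of this kind drive membrane-spanning segments that move lipids, sterols, conjugated metabolites, nucleotides, peptides or drugs across a membrane. The ABCA and ABCC proteins carry both domains in a single chain, whereas the shorter proteins of ABCD and ABCG must pair. ABCC8 and ABCC9 regulate potassium channels instead of transporting, and the ABCE and ABCF proteins have no membrane segments and act in translation. In prostate epithelium and its cancers the family is known for drug efflux, cholesterol handling and the export of cyclic nucleotides and prostaglandins by ABCC4.

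The deposited values are estimated reads per gene and FPKM, which are reads scaled by transcript length and library size. Reads summed to 9970820 in the control and 10718650 in the Akt1/2 DKO library, so that 3 reads, the floor used here, correspond to 0.301 and 0.28 CPM (counts scaled by the library total). A fold change is the Akt1/2 DKO to control ratio of reads normalized by TMM, a scaling that assumes most genes to be unchanged, and its 95% interval is an exact Clopper-Pearson one for counting error. AKT1 had 2645 reads in control and 591 in Akt1/2 DKO, and AKT2 had 2362 and 667, 4.96-fold and 3.93-fold lower. All 8 luminal prostate markers, FOXA1 and KRT8 among them, had at least 10 reads. Their reads summed to 22051 in control and 38412 in Akt1/2 DKO. Of the 8 markers, 3 were higher and 3 lower by at least 1.5-fold, against 15.9% and 15.0% of all genes with at least 10 reads. Markers of basal epithelium summed to 2 and 0 reads, of endothelium to 1 and 2 and of leukocytes to 51 and 69 (50 and 69 of these from CD68, with CD3E at 0). Fibroblast markers summed to 138 and 153, but single genes differed in both directions. COL1A1 had 55 and 106 reads, LUM 5 and 35, and COL3A1 74 and 9. Of these 3 fibroblast markers, 2 were higher and 1 lower by at least 1.5-fold, against the same 15.9% and 15.0%. In bulk RNA, fewer cells of a type and less RNA per cell cannot be told apart.

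The highest FPKM in the family belonged to genes for proteins without membrane segments. ABCE1, which splits ribosomes for recycling, stood at 64.6 FPKM in control and 69.2 in Akt1/2 DKO. ABCF2 stood at 61.7 and 73.0 FPKM. The leading transporter was ABCA2, an endolysosomal lipid transporter, at 51.8 and 50.3 FPKM. These 3 genes led in both libraries, with ABCE1 first in control and ABCF2 first in Akt1/2 DKO. ABCE1 lay above 89.2% of all genes with at least 10 reads in control and 90.1% in Akt1/2 DKO. Together the 4 ABCE and ABCF genes held 38.4% of the family's summed FPKM in control and 42.3% in Akt1/2 DKO. The sum over all 45 genes was 447.5 and 472.2 FPKM.

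**Figure D1:**
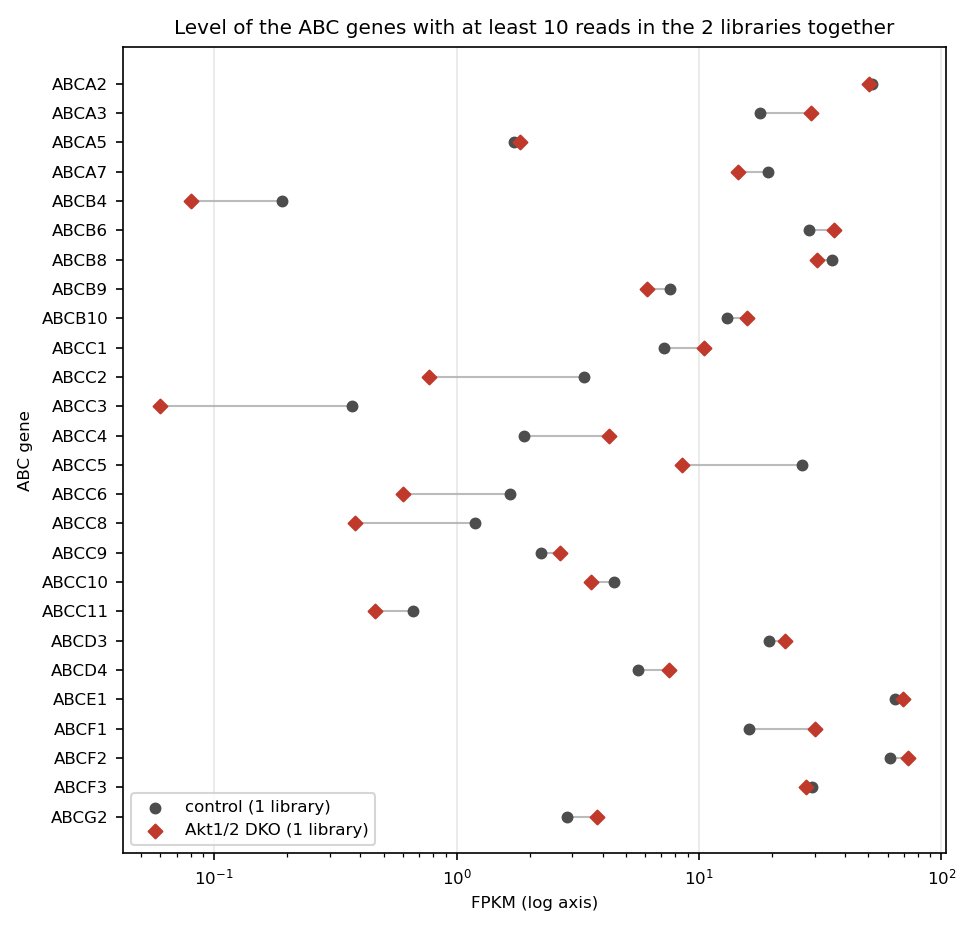
FPKM of 26 of the 28 ABC genes that had 10 or more reads over both libraries, on a log axis, with 1 point per library (grey circles control, red diamonds Akt1/2 DKO) joined by a line. ABCE1, ABCF2 and ABCA2 lie furthest right in both libraries, and the long lines to the left belong to ABCC2, ABCC3, ABCC5, ABCC6, ABCC8 and ABCB4.

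Of the 45 genes, 28 had 10 or more reads over both libraries and are called tested here, 10 had between 1 and 9, and 7 had none. The 7 without a read were ABCA4, ABCA8, ABCA10, ABCA13, ABCB11, ABCC12 and ABCD2, and a count of 0 allows up to 0.301 CPM in control and 0.28 CPM in Akt1/2 DKO. Several drug and sterol pumps of textbook importance were near this floor. ABCB1, the multidrug pump P-glycoprotein, had 1 read in control and 4 in Akt1/2 DKO, and the interval of its log2 fold change ran from -1.49 to 7.47. ABCA1, which loads cholesterol onto apolipoprotein A-I, had 7 and 0 reads. With Akt1/2 DKO set to the floor of 3 reads it was 2.59-fold lower, and the counting interval allowed a fold as small as 1.598. ABCG1, its partner in sterol efflux, had 4 and 0 reads, on the same basis 1.48-fold lower, with an interval that included no change. ABCG5 and ABCG8, which overlap on chromosome 2 and together export plant sterols, had 1 and 0 reads each, and ABCG4 had 2 and 0. All 4 of these ABCG genes were without reads in Akt1/2 DKO, but none had more than 4 in control, so the depth did not allow a difference to be seen.

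Of the 28 genes with enough reads, 10 (35.7%) differed by at least 1.5-fold, against 30.9% of all 13318 genes tested. Of these, 4 (14.3%) were higher in Akt1/2 DKO, against 15.9% of all genes, and 6 (21.4%) were lower, against 15.0%. Restricted to 100 or more reads over both libraries, 6 of 23 ABC genes (26.1%) differed, against 23.2% of 10956 genes, with 4 higher (17.4%, against 11.3%) and 2 lower (8.70%, against 11.9%). As a family, then, the ABC genes differed about as often as other genes. Their median log2 fold change was -0.10, that of all genes 0.01. For 18 of the 28 the counting interval of the log2 fold change excluded 0.

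The 10 genes were spread unevenly over the subfamilies. In ABCC 6 of 10 tested genes passed 1.5-fold, 5 of them lower and 1 higher in Akt1/2 DKO, with a median log2 fold change of -0.91. In the other subfamilies 4 of 18 did, 3 higher and 1 lower, with a median of 0.02. Of all genes tested, 15.9% were higher and 15.0% lower. This contrast between subfamilies was not tested, since genes are not replicates of a condition. It also rests in part on shallow genes, as ABCC3, ABCC6 and ABCC8 had 25, 34 and 79 reads over both libraries. The 6 ABCC genes with at least 100 reads lay on both sides of no change. Their log2 fold changes were -2.17 (ABCC2), -1.69 (ABCC5), -0.13 (ABCC10), 0.21 (ABCC9), 0.52 (ABCC1) and 1.13 (ABCC4). In ABCA 1 of 4 tested genes passed, in ABCB 1 of 6, in ABCD 0 of 3, in ABCF 1 of 3 and in ABCG 1 of 1, and ABCE1 did not.

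**Figure D2:**
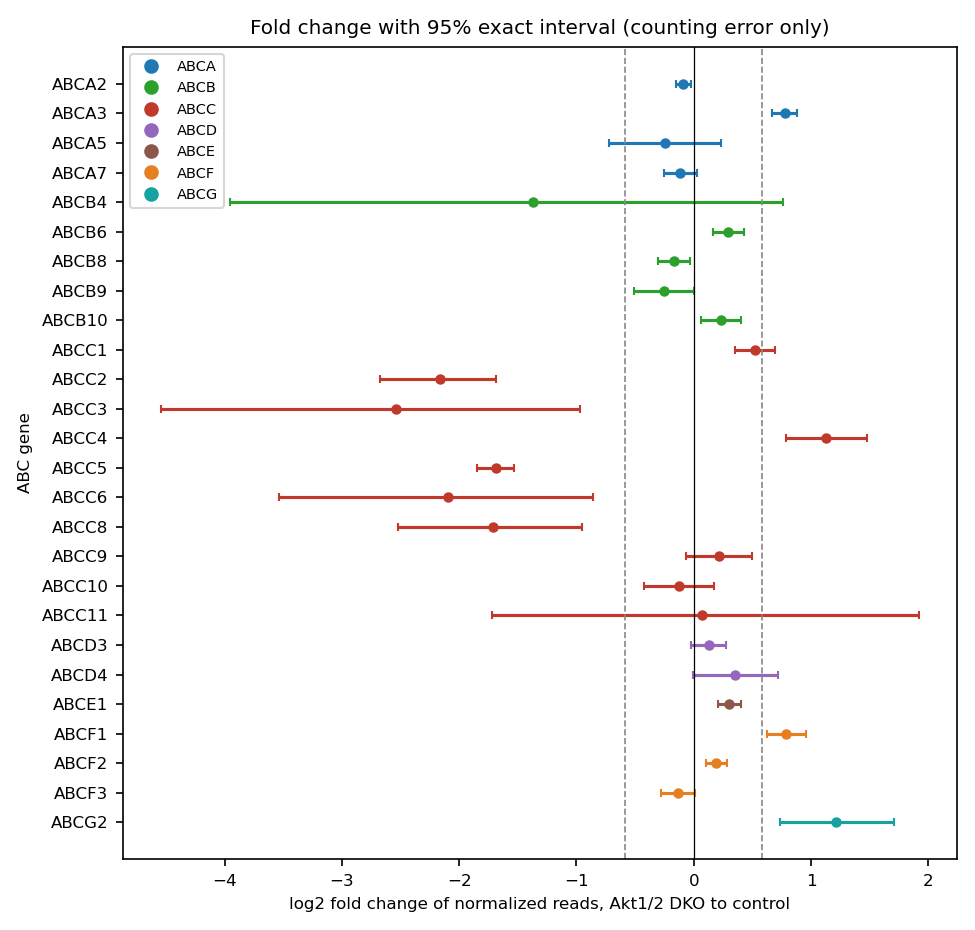
Log2 fold change of normalized reads from control to Akt1/2 DKO for 26 of the 28 tested ABC genes, coloured by subfamily, where bars are 95% exact intervals for counting error and dashed lines mark 1.5-fold. The intervals of ABCC2, ABCC3, ABCC5, ABCC6 and ABCC8 lie wholly to the left of the lower dashed line, and that of ABCB4 crosses 0.

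Of the lower genes ABCC5 was by far the most deeply sequenced. It exports cyclic nucleotides and nucleoside analogues. Its reads numbered 1321 in control and 454 in Akt1/2 DKO, 3.23-fold lower (95% interval 2.90 to 3.597), and its FPKM 26.7 and 8.53. By FPKM it ranked 7 in the family in control and 14 in Akt1/2 DKO. Among the ABCC genes it was the highest in control, and in Akt1/2 DKO ABCC1 stood above it.

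ABCC5 lies on chromosome 3 (chr3:183919934-184018015), where genes were lower in general. The 754 tested genes of that chromosome had a median log2 fold change of -0.54, and 46.7% were lower by at least 1.5-fold. ABCC5, at -1.69, lay 1.15 below that median, and 8.22% of the chromosome's tested genes were lower still. ABCF3, the next ABC gene on the chromosome, starts 168 kb beyond the end of ABCC5 (chr3:184186023-184194012). It had 773 reads in control and 780 in Akt1/2 DKO, a log2 fold change of -0.14 (interval -0.28 to 0.01), 0.41 above the chromosome's median. The part of the chromosome-wide shift in the values of either gene was not tested.

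**Figure D3:**
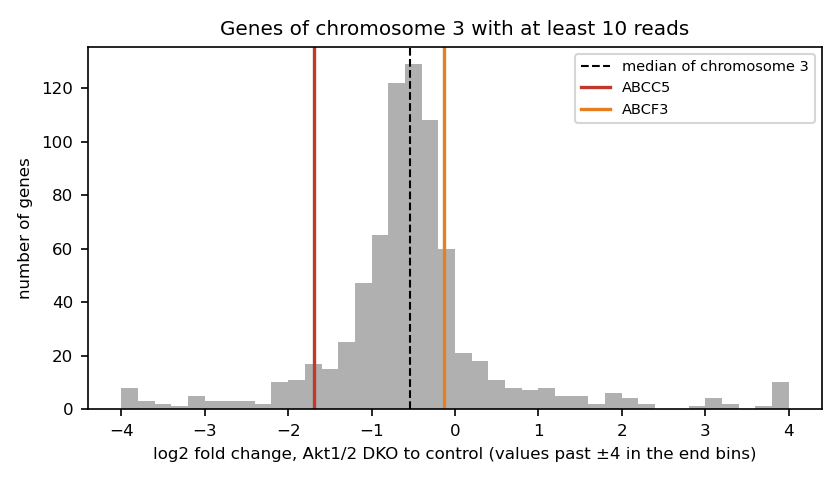
Number of chromosome 3 genes, out of 754 with at least 10 reads, by log2 fold change from control to Akt1/2 DKO, with values past 4 in either direction gathered in the end bins. The dashed median lies at -0.54, ABCC5 at -1.69 in the left flank and ABCF3 at -0.14 to the right of the median.

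ABCC2 and ABCC3 export bile pigments, glucuronides and other conjugates, at the apical and the basolateral surface of polarized cells respectively. ABCC2 had 178 reads in control and 44 in Akt1/2 DKO, 4.49-fold lower (95% interval 3.21 to 6.39). Its FPKM was 3.34 and 0.77. ABCC3 had 21 and 4 reads, 5.82-fold lower with a wide interval from 1.96 to 23.3, and FPKM of 0.37 and 0.06. Both genes are best known from liver, so the liver markers were set beside them. Of 3 such markers, ALB, encoding albumin, had 1244 reads in control and 120 in Akt1/2 DKO, APOA1 had 6 and 0, and CYP3A4 had none in either library. The list summed to 1250 and 120 reads, and its part in the values of ABCC2 and ABCC3 was not tested.

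ABCC6, whose loss causes pseudoxanthoma elasticum, had 27 reads in control and 7 in Akt1/2 DKO, 4.28-fold lower (95% interval 1.82 to 11.6), and its FPKM of 1.66 and 0.60 gave 2.77-fold. Pseudogene copies of its first exons can take or lend reads, so this value is uncertain. ABCC1, the exporter of glutathione conjugates and leukotriene C4, lies 5.85 kb from ABCC6 on chromosome 16. It had 459 and 732 reads, 1.44-fold higher (interval 1.28 to 1.62), short of the 1.5-fold threshold. The 2 neighbours thus differed in direction, with intervals that did not overlap.

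ABCC8 and ABCC9 encode the sulfonylurea receptors SUR1 and SUR2, which close or open potassium channels according to the cell's ATP. ABCC8 had 59 reads in control and 20 in Akt1/2 DKO, 3.27-fold lower (95% interval 1.94 to 5.73). ABCC9 had 185 and 238 reads, a log2 fold change of 0.21 (interval -0.07 to 0.50). The pore subunits that assemble with them, KCNJ11 and KCNJ8, are next to them in the genome, KCNJ11 at 3.17 kb from ABCC8 on chromosome 11 and KCNJ8 at 21.8 kb from ABCC9 on chromosome 12. KCNJ11 had 20 reads in control and 108 in Akt1/2 DKO, 4.87-fold higher. KCNJ8 had 23 and 1177 reads, 46.2-fold higher, and its FPKM was 0.96 and 45.6. Both pore genes were therefore higher in Akt1/2 DKO by at least 1.5-fold, as were 15.9% of all genes tested, while neither receptor gene was. In Akt1/2 DKO, KCNJ8 at 45.6 FPKM stood far above ABCC9 at 2.66, and in control KCNJ8 at 0.96 stood below ABCC9 at 2.23.

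ABCC4, the exporter of cyclic AMP and prostaglandins, was the only ABCC gene past 1.5-fold in the other direction. It had 99 reads in control and 240 in Akt1/2 DKO, 2.19-fold higher (95% interval 1.72 to 2.79). Its FPKM was 1.89 and 4.27. The study lists quantitative PCR primers for ABCC4, shown here because they fix which part of the transcript such an assay reads. How ABCC4 was chosen for that assay is not stated in the sources used here. Both matched 12 GENCODE release 29 transcripts of ABCC4 and no other gene. In the longest principal coding transcript, which has 31 exons, the forward primer lies within coding sequence of exon 8 (chr13:95206557-95206576) and the reverse primer within that of exon 10 (chr13:95188486-95188505), on the minus strand of GRCh38. The 204 bases between and including them, with the primer sites in capitals, were as follows.
ABCC4 forward primer: attgagagggtgtcagaggc
ABCC4 reverse primer: caattcgccaggtctgacag
ABCC4 amplicon: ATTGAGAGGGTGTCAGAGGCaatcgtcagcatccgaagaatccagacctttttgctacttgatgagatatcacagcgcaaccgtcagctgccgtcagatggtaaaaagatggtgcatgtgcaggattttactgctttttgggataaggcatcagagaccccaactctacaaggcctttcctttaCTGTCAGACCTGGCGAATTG

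The genes that handle the same substrates were set beside ABCC4. HPGD, which inactivates prostaglandins, had 1405 reads in control and 233 in Akt1/2 DKO, 6.69-fold lower. SLCO2A1, the prostaglandin uptake carrier, had 167 and 22 reads, 8.42-fold lower. SLCO2A1 lies on chromosome 3, whose median log2 fold change was -0.54, and the part of that shift in its value was not tested. The scaffold gene SLC9A3R1 had 243 and 338 reads, within 1.5-fold, and PDZK1 had 4 and 8, past 1.5-fold but with an interval that included no change. Of the 4 genes 1 was thus higher and 2 lower, against 15.9% higher and 15.0% lower of all genes.

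ABCC10, a drug exporter, had 191 and 194 reads, and ABCC11, known for its ear wax variant, had 6 and 7. Neither differed beyond its counting interval. Summed over the subfamily, ABCC stood at 49.7 FPKM in control and 31.7 in Akt1/2 DKO, or 11.1% and 6.72% of the family's total. Without ABCC5 the sums were 23.0 and 23.2 FPKM, so the lower total of ABCC was not seen without ABCC5. In that sum the lower values of ABCC2, ABCC3, ABCC6 and ABCC8 were balanced by the higher ones of ABCC1 and ABCC4.

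**Figure D4:**
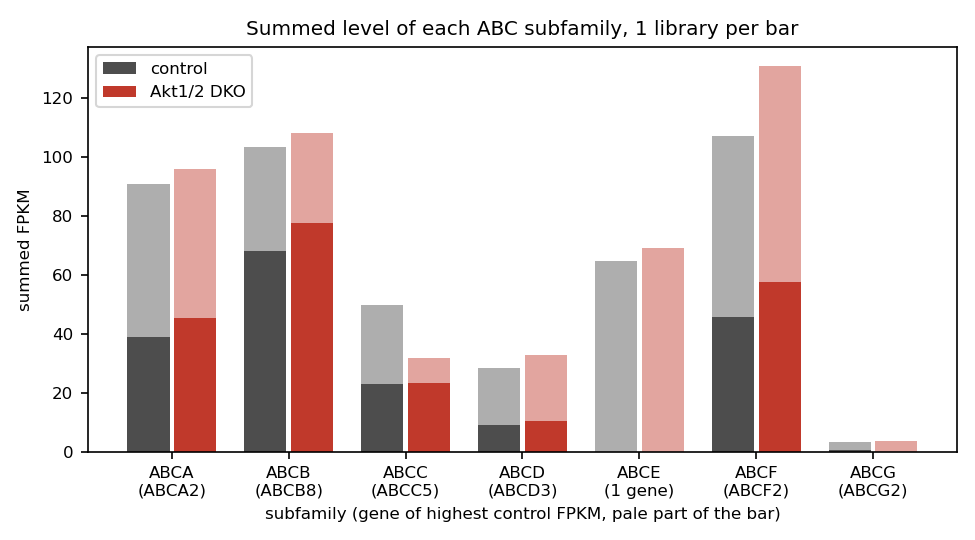
Summed FPKM of each ABC subfamily in control (grey) and Akt1/2 DKO (red), 1 library per bar, where the pale part is the gene of highest control FPKM named under the axis. ABCC stands at 49.7 and 31.7, and its dark part, without ABCC5, at 23.0 and 23.2.

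To show the sequence before the start sites of the ABCC genes that differed most at good depth, the 250 bases upstream of the annotated start are given for ABCC2 and ABCC5 (lower in Akt1/2 DKO) and ABCC4 (higher). They come from RefSeq (GRCh38.p14), run 5′ to 3′ on the strand of the gene, and are genes with 1 start in that table and at least 100 reads. Capitals mark matches, on either strand, to the 5 motifs searched.
ABCC2, chr10:99782390-99782639, plus strand: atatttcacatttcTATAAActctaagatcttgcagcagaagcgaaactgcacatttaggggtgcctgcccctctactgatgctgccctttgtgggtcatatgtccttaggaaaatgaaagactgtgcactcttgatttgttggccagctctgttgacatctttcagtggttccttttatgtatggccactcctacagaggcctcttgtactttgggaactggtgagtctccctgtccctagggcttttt
ABCC5, chr3:184017885-184018134, minus strand: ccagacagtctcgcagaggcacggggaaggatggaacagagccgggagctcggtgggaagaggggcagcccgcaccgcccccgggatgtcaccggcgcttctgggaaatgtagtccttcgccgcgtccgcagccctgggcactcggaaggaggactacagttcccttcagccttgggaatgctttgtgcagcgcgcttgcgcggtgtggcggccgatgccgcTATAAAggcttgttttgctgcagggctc
ABCC4, chr13:95301452-95301701, minus strand: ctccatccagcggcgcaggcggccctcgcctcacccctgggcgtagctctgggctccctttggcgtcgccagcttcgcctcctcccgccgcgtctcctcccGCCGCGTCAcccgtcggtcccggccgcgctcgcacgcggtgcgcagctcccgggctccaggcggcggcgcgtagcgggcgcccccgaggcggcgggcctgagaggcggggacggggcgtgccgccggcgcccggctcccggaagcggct

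The 3 windows differ in make-up, with 1 CG dinucleotide in that of ABCC2, 21 in ABCC5 and 42 in ABCC4. One motif searched was TATAAA, the TATA box near which transcription can begin. Another was TGACNNNGC, the antioxidant response element. The forkhead factors, such as the FOXO proteins, were searched as GTAAACA. The E-box was CACGTG, which is its own reverse complement, and the CCAAT box was searched by those letters. Each of the 3 windows held 1 match, so none overlapped. TATAAA matched in ABCC2, at 236 bases before the start, and in ABCC5, at 28 bases, against 10.7% of all 35116 windows of the table. TGACNNNGC matched in ABCC4, at 149 bases, against 10.9% of all windows. None of the 3 held GTAAACA, which matched 2.98% of all windows. Of the 35 ABC genes found in the table, 3 held GTAAACA in at least 1 window (ABCA6, ABCE1 and ABCF1). That count is by gene, and some genes have several windows, so it cannot be set against the share of windows. A match is a string of letters and not a bound site, and these cells may use other starts.

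ABCG2, a pump that expels drugs and urate, had 51 reads in control and 131 in Akt1/2 DKO, 2.32-fold higher (95% interval 1.66 to 3.27). Its FPKM was 2.85 and 3.79, or 1.33-fold. It was the only one of the 28 genes whose side of the 1.5-fold threshold differed between reads and FPKM. Reads, FPKM and library total together imply an effective length for each gene in each library, and for ABCG2 this was 1.79 kb in control and 3.22 kb in Akt1/2 DKO. It differed more between the libraries in this length than any other of the 28 genes. The next, in order, were ABCC11 (0.912 and 1.42 kb), ABCC6 (1.63 and 1.09 kb) and ABCA7 (4.26 and 5.40 kb). For ABCC4 the lengths were 5.25 and 5.24 kb, and for ABCC5 4.97 kb in both. RefSeq lists 5 start sites for ABCG2, and which transcripts the cells made was not tested.

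**Figure D5:**
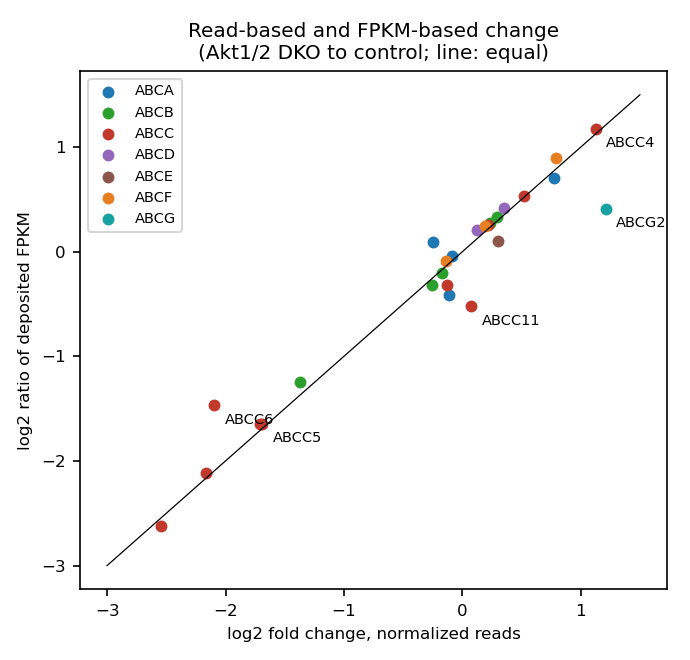
Log2 ratio of the deposited FPKM (vertical) against log2 fold change of normalized reads (horizontal) for 26 of the 28 tested ABC genes, Akt1/2 DKO to control, coloured by subfamily, with the line of equal values. Most genes lie near the line, and ABCG2 lies below it at 1.21 and 0.41.

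Of the ABCA genes, only ABCA3 passed 1.5-fold at a depth of at least 10 reads. ABCA3 moves phospholipids into lamellar bodies of lung cells. It had 1089 reads in control and 2066 in Akt1/2 DKO, 1.71-fold higher (95% interval 1.59 to 1.84). Its FPKM was 17.8 and 29.1. ABCA2 had 4216 and 4398 reads, a log2 fold change of -0.09, and ABCA7, a lipid transporter, had 819 and 839, or -0.11. The FPKM of ABCA7, 19.3 and 14.5, gave a log2 ratio of -0.41, outside the interval of its reads (-0.25 to 0.03). ABCA5 had 78 and 73 reads. ABCA12, the lipid transporter of the skin barrier, had 1 and 6, and its interval included no change. The cluster of ABCA genes on chromosome 17 had few reads apart from ABCA5, with at most 2 reads in any of ABCA6, ABCA8, ABCA9 and ABCA10.

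The transporters ABCB6, ABCB8 and ABCB10 were within 1.5-fold. They are found in mitochondria, where heme and iron-sulfur clusters are made. ABCB8 had 896 reads in control and 882 in Akt1/2 DKO, and ABCB10 had 505 and 657. ABCB6, a porphyrin transporter, had 839 and 1142 reads. Their log2 fold changes ran from -0.17 for ABCB8 to 0.30 for ABCB6. Of 12 heme and iron-sulfur genes set beside them, 1 (8.33%) was higher by 1.5-fold and none lower, against 15.9% and 15.0% of all genes. All 12 had at least 100 reads over both libraries, a depth at which 11.3% of all genes were higher and 11.9% lower. The median log2 fold change of the 12 genes was -0.06. The higher gene was SLC25A37, the mitochondrial iron importer, with 931 and 1683 reads (1.63-fold). In this list ALAS1 (-0.32), CPOX (-0.20) and SLC25A38 (-0.56) lie on chromosome 3, whose median log2 fold change was -0.54. The part of that shift in their values was not tested. Exons of ABCB6 share 54.7% of their bases with another annotated coding gene of the same strand, whose reads may be counted with it.

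The other ABCB genes were low or within 1.5-fold. ABCB9, a lysosomal peptide transporter, had 260 and 242 reads, and its exons overlap those of OGFOD2 and ARL6IP4 on the opposite strand. ABCB4, the phosphatidylcholine floppase of bile, had 7 and 3 reads, a ratio of 2.59 in favour of control with an interval from 0.591 to 15.5, so that the depth did not show a difference. ABCB5 had 2 and 0 reads. The peptide transporters of antigen presentation belong to the same subfamily under other names. TAP1 had 184 reads in control and 211 in Akt1/2 DKO. TAP2, which must pair with TAP1, had 196 and 515, 2.37-fold higher, and so 1 of these 2 passed 1.5-fold, against 30.9% of all genes. CFTR, the chloride channel of the ABCC subfamily, had none.

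In ABCD, which imports fatty acyl chains into peroxisomes, no gene passed 1.5-fold. ABCD3 had 692 reads in control and 838 in Akt1/2 DKO, and ABCD2 had none. ABCD4, which releases cobalamin from lysosomes, had 110 and 156. Of 10 peroxisomal partner genes 2 were higher and 2 lower by 1.5-fold, near the 15.9% and 15.0% of all genes. The acyl-CoA synthetase genes were the higher ones, ACSL1 with 76 and 708 reads (8.40-fold) and SLC27A2 with 39 and 318 (7.35-fold). The lower ones were the thiolase genes ACAA1 with 1203 and 600 reads (2.22-fold) and SCP2 with 1139 and 828 (1.53-fold). ACAA1 lies on chromosome 3, whose median is given above. Of 3 cobalamin genes beside ABCD4, LMBRD1 was 1.57-fold higher (205 and 356 reads), MMADHC 1.98-fold lower (1064 and 597) and MMACHC within 1.5-fold. Of all genes, 15.9% were higher and 15.0% lower.

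Among the translation factors ABCF1 stood apart. ABCF1, which binds initiation factor eIF2, had 460 reads in control and 881 in Akt1/2 DKO, 1.73-fold higher (95% interval 1.54 to 1.94), and its FPKM was 16.2 and 30.1. ABCF2 had 1943 and 2463 reads, 1.14-fold higher, and shares 45.8% of its exon bases with an annotated gene of the same strand. ABCE1 had 1573 and 2154 reads, 1.24-fold higher in reads and 1.07-fold in FPKM. ABCF3, which works with the GCN2 pathway, was at a log2 fold change of -0.14 as given above. Of 11 partner genes in recycling, termination and initiation, among them ETF1, GSPT1, PELO and the eIF2 subunits, 0 passed 1.5-fold, against 30.9% of all genes. All 11 had at least 100 reads over both libraries, and of all genes at that depth 23.2% passed. The median log2 fold change of the 11 genes was -0.02. The interval of ABCF1 did not overlap those of ABCF2, ABCF3 or ABCE1.

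Sterol-related genes set beside ABCA1 and ABCG1, and receptors and uptake genes for drugs, completed the lists. Of the 8 sterol-related genes, 3 (37.5%) were lower by 1.5-fold and none higher, against 15.0% lower and 15.9% higher of all genes. RXRA, a partner of the liver X receptors, had 242 reads in control and 141 in Akt1/2 DKO (1.90-fold lower). The phospholipid enzyme LPCAT3 had 840 and 438 (2.13-fold lower). APOE had 42 and 28 (1.66-fold lower), and the interval of its log2 fold change, -1.48 to -0.01, came close to no change. The liver X receptor genes NR1H2, with 426 and 583 reads, and NR1H3, with 145 and 194, were within 1.5-fold. Of 8 receptors and uptake genes for drugs, 5 had enough reads, 2 higher and 2 lower, against 15.9% higher and 15.0% lower of all genes. AHR, the receptor for aryl hydrocarbons, had 120 and 416 reads, 3.13-fold higher, and SLCO4A1 had 65 and 228, 3.16-fold higher. SLC22A3, an organic cation carrier, had 88 and 2 reads, and SLCO2A1 was lower as given above. The xenobiotic receptors NR1I2, with 3 reads in control and 1 in Akt1/2 DKO, and NR1I3, with 3 in each, were at the floor, and SLCO1B3 had none. Over all 60 partner genes, 56 had enough reads, 10 of them (17.9%) higher and 9 (16.1%) lower by 1.5-fold, with a median log2 fold change of -0.01. Both shares were near those of all genes, 15.9% and 15.0%.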

How the data were processed

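Total RNA of 2 CWR22rv1 libraries, 1 control and 1 Akt1/2 DKO, was sequenced with Illumina chemistry. The submitters' processing notes name fastp 0.20.0, TopHat, Cufflinks, edgeR and the build GRCh38.p10, and whether counting used strand is not given in the sources used here. The authors deposited estimated counts per gene, not normalized, and FPKM, whose length scaling can differ between libraries. Tables with the authors' own fold changes, p-values, calls and correlation were not used.

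These estimates were rounded, and a gene was tested at 10 or more reads over both libraries. TMM factors (edgeR 4.0.16, R 4.3.3) set the Akt1/2 DKO to control ratio of library sizes at 1.11. Exact Clopper-Pearson intervals at 95% (scipy 1.17.1) cover counting error only. Alternatives were other scalings, read filters, thresholds and the FPKM ratio. For folds, values under 3 reads were raised to 3. Called means past 1.5-fold, with no p-value. No batch can be separated from the groups. Positions are from GENCODE release 29 (GRCh38), which held all 45 genes. The scaling and the 1.5-fold calls were tested on simulated counts that held counting error but no variation between cultures or clones.

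Named genes were those with at least 100 reads past 1.5-fold, the 3 of highest FPKM in each library, ABCB1, ABCC1, ABCG2, ABCA1, ABCG1, ABCC4, and ABCE1 and ABCF1 to ABCF3. Genes with 10 or more reads in one library and 3 or fewer in the other were also to be named, but none was found, and other genes were named after their values were seen. Members and lists were chosen with earlier results of these data known. Protein sequences were not used here, and 2 tested ABC genes are counted but not reported here by name or in figures.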

Additional observations from a re-analysis of the deposited data

How the results depend on the processing

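Of the 28 tested genes 10 passed 1.5-fold, 4 higher and 6 lower. The number lower was 3 where each library needed 10 reads, 3 where both together needed 50 and 2 where they needed 100, since ABCC3, ABCC6, ABCC8 and ABCB4 are shallow. That last filter, chosen after seeing the data, left 6 genes in all. A 2-fold threshold left 2 higher, ABCC4 and ABCG2. Under total count, DESeq2 1.42.0 and upper-quartile scaling, FPKM, no read filter, or an interval wholly past 1.5-fold, these counts stayed within 1.5 times, and the median log2 fold change lay between -0.11 and 0.13 over the settings that gave one.

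The log2 ratio of summed FPKM of ABCC, -0.65, was -0.54 in normalized reads and reversed to 0.013 without ABCC5. For ABCG, normalized reads gave 1.002 in place of 0.17, and for ABCE 0.30 in place of 0.099. Without ABCA2 the ABCA sum had 0.23 in place of 0.079, and without ABCB8 the ABCB sum 0.18 in place of 0.063. Of the 28 tested genes 4 had an FPKM ratio outside the counting interval of their reads, among them ABCG2 at 0.41, ABCE1 at 0.099 and ABCA7 at -0.41. The cause was not tested. No paired analysis was possible because each group has 1 library. Depth limits the 17 genes under 10 reads.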
